A study of Homo sapiens with 6 samples.

Results

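The peaks described here lie at 9 genes for transcription factors of the airway epithelium: EHF, ELF3, KLF5, FOXA1, FOXA2, NKX2-1, TP63, SOX2 and GRHL2. A peak belonged to a locus when its summit lay within 250 kb of the gene's position on hg19, a position given to the nearest 1 kb. Of 35687 listed peaks, 74 met this rule: 24 of 9769 for BRD8 in Calu3, 15 of 9505 for BRD8 in 16HBE14o- and 35 of 16413 for CTCF in Calu3. Chromatin immunoprecipitation with sequencing (ChIP-seq) had been done without treatment on 6 samples, 2 replicates of each experiment. Calu3 is a human lung adenocarcinoma line and 16HBE14o- a human bronchial epithelial line immortalised with a viral oncogene, and per the labels both grew in the same medium. Per the labels, an Active Motif antibody served for BRD8 in both lines and a Millipore antibody for CTCF. Each list had been pooled by the authors from 2 replicates through the irreproducible discovery rate (IDR), so a peak is 1 value per experiment with no replicate error, and the sequencing depth behind it is unknown. No comparison below has a test across samples. No expression was measured, so the identity of the lines could not be set against marker genes.

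BRD8 is a bromodomain protein of the NuA4/TIP60 complex, which acetylates histones and exchanges histone variants at regulatory DNA. CTCF is a zinc finger protein that marks insulators and the anchors of chromatin loops. The 9 genes encode regulators that set the identity of airway cells. EHF and ELF3 are epithelial ETS factors. KLF5 is a Krüppel-like factor of proliferating epithelium. FOXA1 and FOXA2 are forkhead pioneer factors that open chromatin of endoderm genes, and NKX2-1 is the homeodomain factor of lung and thyroid. TP63 marks basal cells, SOX2 is the HMG-box factor of the conducting airway, and GRHL2 controls genes of epithelial junctions.

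At 3 of these genes a summit of some list lay within 1 kb of the position, and their promoters are shown for that reason. The sequences run from 250 bases before to 50 bases after the annotated start, 5′ to 3′ on the gene's strand, and come from RefSeq on GRCh38.p14. Capitals mark the 50 bases from the start onward.
ELF3, GRCh38.p14 chr1:202010337-202010636, plus strand: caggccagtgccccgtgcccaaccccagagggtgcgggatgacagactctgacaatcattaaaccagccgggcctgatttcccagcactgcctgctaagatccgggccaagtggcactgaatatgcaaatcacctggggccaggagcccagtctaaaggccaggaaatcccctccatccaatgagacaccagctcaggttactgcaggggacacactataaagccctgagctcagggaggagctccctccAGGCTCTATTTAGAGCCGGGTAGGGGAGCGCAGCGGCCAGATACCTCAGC
FOXA1, GRCh38.p14 chr14:37595200-37595499, minus strand: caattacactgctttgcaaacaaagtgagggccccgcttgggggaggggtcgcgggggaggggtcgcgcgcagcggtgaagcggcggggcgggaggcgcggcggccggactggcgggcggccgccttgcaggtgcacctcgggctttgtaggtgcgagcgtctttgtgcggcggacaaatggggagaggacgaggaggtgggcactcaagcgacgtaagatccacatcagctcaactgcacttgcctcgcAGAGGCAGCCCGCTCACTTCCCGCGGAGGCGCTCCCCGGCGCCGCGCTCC
SOX2, GRCh38.p14 chr3:181711675-181711974, plus strand: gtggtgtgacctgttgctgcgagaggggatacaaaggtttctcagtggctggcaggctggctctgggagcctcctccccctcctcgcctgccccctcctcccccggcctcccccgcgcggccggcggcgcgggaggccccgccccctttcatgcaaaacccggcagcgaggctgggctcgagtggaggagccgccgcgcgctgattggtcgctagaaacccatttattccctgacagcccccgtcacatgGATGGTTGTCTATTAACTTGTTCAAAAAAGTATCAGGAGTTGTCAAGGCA
The peaks are on hg19 and the sequences on GRCh38.p14, so which of these bases a peak covered was not determined. Promoters of 7 of the 9 genes were found in the table. The ELF3 promoter held 7 CpG dinucleotides, against a median of 14 over 35116 promoters of 300 bases, and the FOXA1 and SOX2 promoters held 34 and 20. GC content was 59.0% for ELF3, 69.3% for FOXA1 and 63.3% for SOX2, with a median of 58.7% over all promoters. The ELF3 promoter held the TATA box letters TATAAA beginning 34 bases before the start, a string present on either strand in 11.5% of all promoters. The letters CCAAT began 73 bases before the ELF3 start on the same strand and 47 bases before the SOX2 start on the opposite strand, and 34.6% of all promoters hold them on either strand.

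The loci differed widely in how many peaks they held. ELF3 held 34 of the 74 peaks (45.9%): 13 BRD8 peaks in Calu3, 10 BRD8 peaks in 16HBE14o- and 11 CTCF peaks. NKX2-1 followed with 5 BRD8 peaks in Calu3, 1 in 16HBE14o- and 5 CTCF peaks. SOX2 had 3 BRD8 peaks in Calu3, 1 in 16HBE14o- and 6 CTCF peaks. Of the forkhead genes, FOXA1 held 2 BRD8 peaks in Calu3, 0 in 16HBE14o- and 5 of CTCF, while FOXA2 held 0 BRD8 peaks in Calu3, 3 in 16HBE14o- and 2 of CTCF. EHF had 4 CTCF peaks and GRHL2 had 2, both without a listed BRD8 peak in either line. TP63 had 1 BRD8 peak in Calu3 and no other, and KLF5 had no peak of any list.

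**Figure D1:**
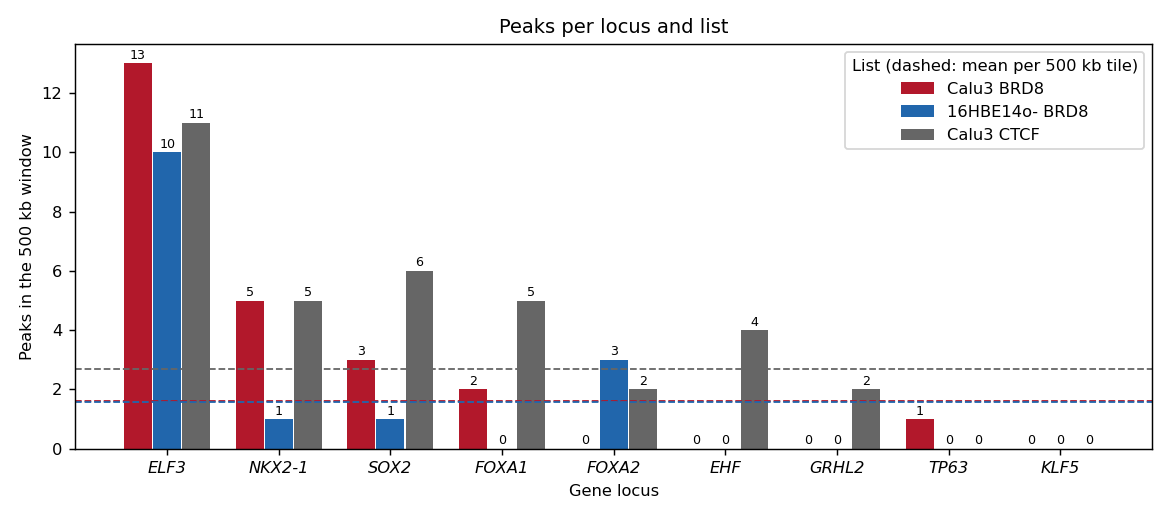
Number of peaks in the 500 kb window (y axis) at each of the 9 loci (x axis) in the Calu3 BRD8, 16HBE14o- BRD8 and Calu3 CTCF lists. Dashed lines give each list's mean over 6087 tiles of 500 kb, and ELF3 stands highest in every list with 13, 10 and 11 peaks.

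As a background, the autosomes and X of hg19 were divided into 6087 tiles of 500 kb, assembly gaps included. A BRD8 summit of Calu3 was found at 5 of 9 loci and in 44.6% of tiles, and one of 16HBE14o- at 4 of 9 loci and in 51.2% of tiles. CTCF was listed at 7 of 9 loci and in 63.1% of tiles. With 9 loci the counting error of such shares is wide, and no test was made. BRD8 was listed in both lines at ELF3, NKX2-1 and SOX2, in Calu3 alone at FOXA1 and TP63, in 16HBE14o- alone at FOXA2, and in neither line at EHF, KLF5 and GRHL2. Tiles fell into the same classes in 36.3%, 8.33%, 14.9% and 40.5% of cases. The density at ELF3 was matched or exceeded in 1.36% of tiles for Calu3 BRD8, 1.81% for 16HBE14o- BRD8 and 4.91% for CTCF. The tiles are not centred on genes, as the loci are.

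**Figure D2:**
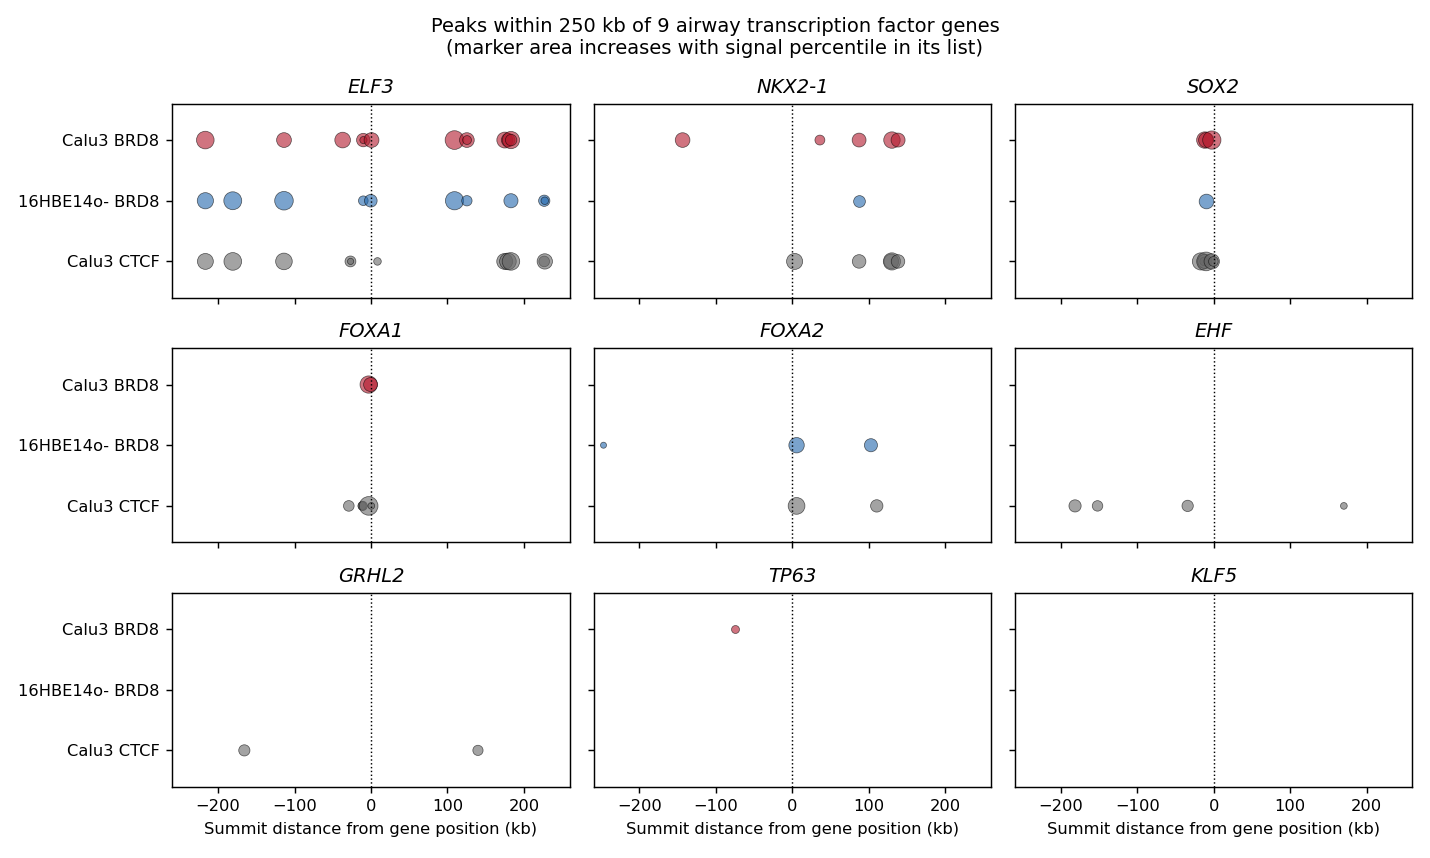
Summit positions of the 74 peaks as distance from each gene's position in kb (x axis), with the 3 lists on separate rows (Calu3 BRD8, 16HBE14o- BRD8, Calu3 CTCF from the top) and a marker area that grows with the signal percentile. Peaks were spread across the ELF3 window, crowded near the position at SOX2 and FOXA1, and missing from the KLF5 window.

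The authors' signal ranks peaks within a list, and the percentile used here is the share of a list's peaks with a signal at or below that of the peak. The 24 Calu3 BRD8 peaks had a median percentile of 57.0 (5.98 to 97.5), and 15 of them stood in the upper 50% of their list. For the 15 BRD8 peaks of 16HBE14o- the median was 42.9 (1.24 to 96.0), with 7 in the upper 50%. The 35 CTCF peaks had a median of 46.1 (1.96 to 97.3), with 16 in the upper 50%. The peaks at these genes thus covered nearly the whole range of signal in each list, and 2 of each list passed the 90th percentile.

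**Figure D3:**
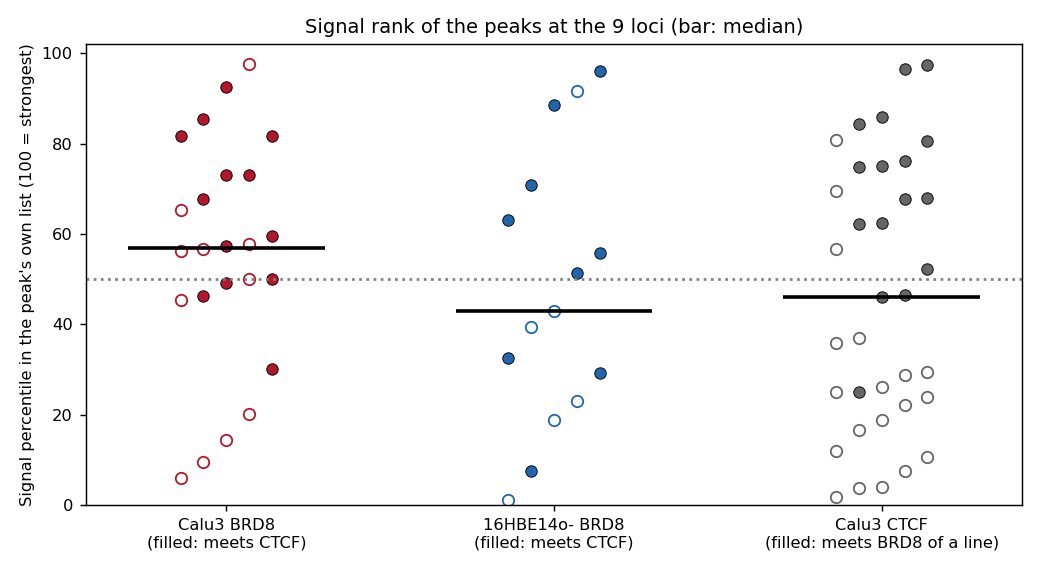
Signal percentile within its own list (y axis, 100 strongest) of the 24 Calu3 BRD8, 15 16HBE14o- BRD8 and 35 CTCF peaks at the 9 loci, with the median as a bar. Filled points met a CTCF peak (BRD8 lists) or a BRD8 peak of a line (CTCF list), and in the CTCF list most points above the 50th percentile are filled.

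Overlap between the lists was counted from 1 bp upward, with exact 95% Clopper-Pearson intervals that cover counting error only. Of the 24 Calu3 BRD8 peaks, 11 met a 16HBE14o- BRD8 peak, or 45.8% (25.6 to 67.2%), against 50.1% of the whole list. Of the 15 BRD8 peaks of 16HBE14o-, 8 met one of Calu3, or 53.3% (26.6 to 78.7%), against 43.4% of the whole list. Both intervals contain the value of the list. The Calu3 share came mostly from ELF3, where 9 of the 13 Calu3 peaks were shared. At the other 8 loci 2 of 11 Calu3 peaks met a peak of 16HBE14o-, 1 at NKX2-1 and 1 at SOX2 (18.2%, 2.28 to 51.8%). Some Calu3 peaks at ELF3 overlapped each other but were counted separately. With overlapping peaks merged, ELF3 held 10 Calu3 BRD8 peaks, and 8 of 21 over the loci were shared (38.1%, 18.1 to 61.6%).

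CTCF was met by 13 of 24 BRD8 peaks in Calu3, or 54.2% (32.8 to 74.4%), against 70.5% of the whole list, and by 9 of 15 in 16HBE14o-, or 60.0% (32.3 to 83.7%), against 65.3%. The value of the list lies in both intervals. Because 16HBE14o- has no CTCF list, and lists can miss sites, the BRD8 peaks that met none may still hold CTCF. Seen from CTCF, 12 of 35 peaks met BRD8 of Calu3 (34.3%, 19.1 to 52.2%; whole list 36.1%) and 9 met BRD8 of 16HBE14o- (25.7%, 12.5 to 43.3%; whole list 38%). Without ELF3, BRD8 of 16HBE14o- was met by 3 of 24 CTCF peaks (12.5%, 2.66 to 32.4%), and BRD8 of Calu3 by 7 of 24 (29.2%, 12.6 to 51.1%). The first interval lies below the 38% of the list, but for that share ELF3 was left out after the data were seen. Peaks of a locus are also not independent: 4 CTCF peaks at EHF, 5 at FOXA1 and 2 at GRHL2 lay in windows without a listed 16HBE14o- BRD8 peak. A difference from the list was therefore not tested. The 16 CTCF peaks with BRD8 of a line had a median percentile of 71.4 and the other 19 one of 24.0. Medians over the whole list were 64.7 and 34.1.

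Merging all 3 lists gave 46 regions at the 9 loci. CTCF alone accounted for 18 of them (39.1%; 35.8% of all 21110 regions) and all 3 lists for 5 (10.9%; 16.8% of all regions). BRD8 of Calu3 with CTCF made up 7 (15.2%; 10.6% of all regions) and BRD8 of 16HBE14o- with CTCF 4 (8.70%; 12.5%). Regions of BRD8 with no CTCF peak numbered 6 for Calu3 alone (13.0%; 8.71% of all regions), 3 for 16HBE14o- alone (6.52%; 12.9%) and 3 for both lines (6.52%; 2.67%). Those last 3 all lay at ELF3.

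ELF3 encodes an ETS factor of differentiated epithelium and lies in 1q32.1 (hg19 chromosome 1, position 201979000). Peaks belong to a window by distance alone, and here as at the other loci none was assigned to a gene. The strongest Calu3 BRD8 peak of the ELF3 window was also the strongest of the 24. It stood 109.3 kb above the position (chromosome 1, 202088183 to 202088394) with a signal of 110 and rank 241, at percentile 97.5. In 16HBE14o- a BRD8 peak with a summit 22 bp away (202088195 to 202088418) had a signal of 48.9 and rank 791, at percentile 91.7. No CTCF summit was listed within 65.7 kb of the Calu3 summit. Strong BRD8 peaks off CTCF were few: of the 241 Calu3 peaks of this rank or better, 9 met no CTCF peak (3.73%), against 2886 of 9769 over the list. This peak set the cut and is 1 of the 9. Of those 9, 7 were called in both lines, but the share among all 241 was not counted. Over the whole list 50.1% of Calu3 BRD8 peaks met one of 16HBE14o-, and these were stronger than the others (median percentile 61.8 against 39.7).

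Both other ELF3 regions of BRD8 in both lines without CTCF were weaker. At 125.5 kb above the position the Calu3 peak stood at percentile 56.7 and the 16HBE14o- peak at 23.0, with summits 13 bp apart. At 10.1 kb below it the percentiles were 45.5 in Calu3 and 18.8 in 16HBE14o-, with summits 36 bp apart. In each of these regions Calu3 had a further, weaker BRD8 peak that overlapped the first, with summits 211 bp and 201 bp apart.

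Around the ELF3 position itself the lines had separate peaks. In Calu3 a BRD8 summit lay 0.725 kb above it (201979488 to 201979963, signal 35.1, percentile 57.8), and in 16HBE14o- a BRD8 summit lay 0.228 kb below it (201978661 to 201978884, signal 26.9, percentile 39.3). These summits were 953 bp apart and the peaks did not overlap. Positions are given to the nearest 1 kb, so the side and order of summits this near a position are uncertain, here and at FOXA1 and SOX2. The nearest CTCF summit was 8.54 kb above the position and weak, at percentile 7.70. The ELF3 promoter printed above is the one with the fewest CpG of the 3.

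CTCF and BRD8 met toward the edges of the ELF3 window. At 113.8 kb below the position all 3 lists had a peak. The 16HBE14o- BRD8 peak there (201865102 to 201865325) was the strongest of the 15 of that line, with a signal of 58.2 and percentile 96.0, while the Calu3 BRD8 peak stood at 57.3 and CTCF at 74.7. The BRD8 summits of the lines were 22 bp apart. The other regions of all 3 lists lay 216.7 kb below, with percentiles of 85.4 for Calu3 BRD8, 70.8 for 16HBE14o- BRD8 and 67.8 for CTCF, and 183.1 kb above, with 81.7, 51.3 and 84.4. The strongest CTCF peak of the locus, 180.8 kb below (201798153 to 201798312, signal 130.9, percentile 85.9), met a BRD8 peak of 16HBE14o- (signal 45.5, percentile 88.5). No Calu3 BRD8 summit was listed within 35.9 kb of that CTCF summit. This was the strongest 16HBE14o- BRD8 peak at the 9 loci with CTCF and without a Calu3 BRD8 peak within 1 kb.

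Sites of 1 line were found on both sides of ELF3. Calu3 BRD8 met CTCF at 175.1 and 179.4 kb above the position, where 16HBE14o- had no BRD8 peak. In 16HBE14o-, BRD8 met CTCF at 226.7 and 227.4 kb above it, where Calu3 had no BRD8 peak. The Calu3 peak 37.1 kb below the position (201941710 to 201942185, signal 38.7, percentile 65.3) met no peak of another list. It was the strongest Calu3 BRD8 peak at the 9 loci with neither CTCF nor a 16HBE14o- peak within 1 kb.

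**Figure D4:**
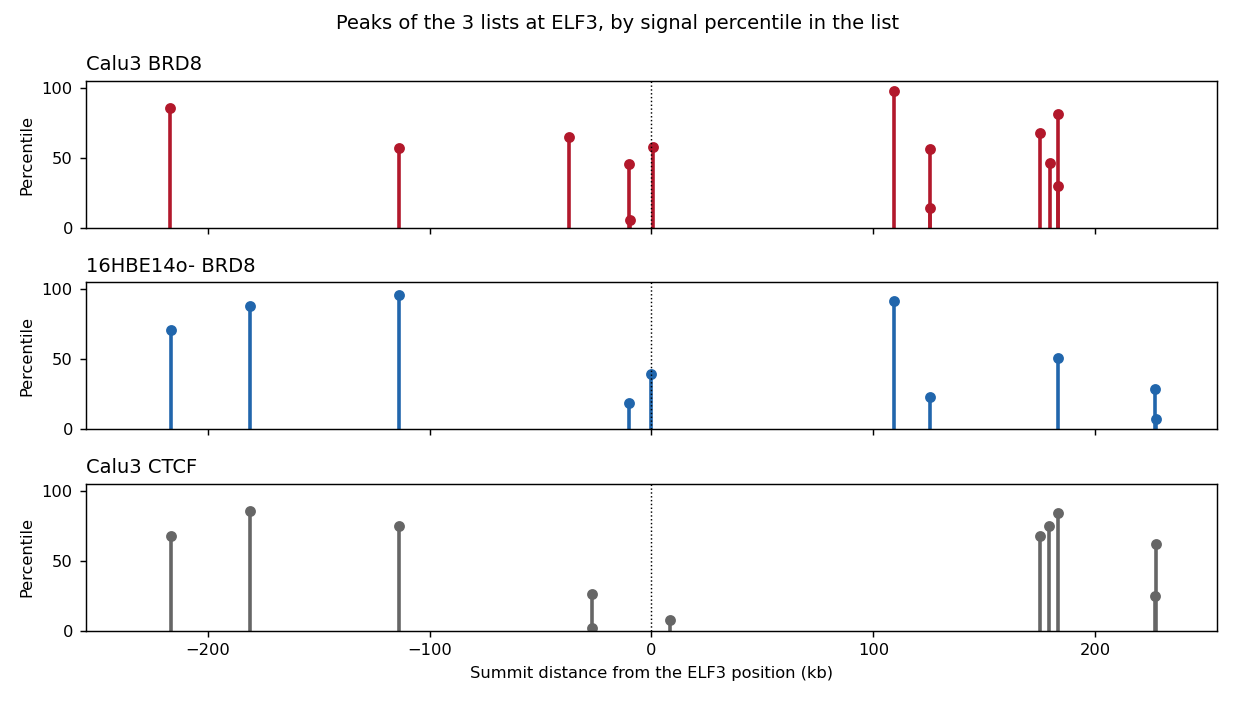
Peaks of the Calu3 BRD8, 16HBE14o- BRD8 and Calu3 CTCF lists (panels from the top) by summit distance from the ELF3 position in kb (x axis) and signal percentile in the list (y axis). The BRD8 pair 109.3 kb above the position, at percentiles 97.5 in Calu3 and 91.7 in 16HBE14o-, has no CTCF peak beneath it.

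EHF, the other ETS gene, lies in 11p13 (chromosome 11, position 34642000). Its 4 CTCF peaks were weak, with percentiles of 4.06 to 35.8. The strongest stood 181.4 kb below the position (34460473 to 34460762, signal 27.7) and the nearest 34.1 kb below it. A site of all 3 lists lay just beyond the window, 260.9 kb below the position. There the Calu3 BRD8 peak (34381030 to 34381203) had a signal of 68.3 and percentile 92.2, the 16HBE14o- BRD8 peak had percentile 53.3 and CTCF 10.1. In the other direction the next Calu3 BRD8 summit was 0.999 Mb from the position and the next one of 16HBE14o- 8.69 Mb. The stretch of 8.95 Mb around EHF was the 14th longest of 9482 without a BRD8 summit in 16HBE14o-, and 6 of those 14 span a centromere. A long stretch takes in more positions than a short one, so its rank by number overstates how rare such a position is. Stretches at least this long covered 6.73% of all distance between neighbouring summits of that list. The arm 11p as a whole held 251 BRD8 peaks in Calu3 and 31 in 16HBE14o-. CTCF in Calu3 had 435 peaks there, or 4.05 per 500 kb, against 2.70 over all tiles. Copy number was not measured, and the difference between the lines on this arm was not tested.

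KLF5 lies in 13q22.1 (chromosome 13, position 73633000), and the lists were emptiest there. The nearest Calu3 BRD8 summit was 12.6 Mb away, the nearest one of 16HBE14o- 2.16 Mb and the nearest CTCF summit 1.23 Mb. The position fell in the longest of 9746 stretches between neighbouring Calu3 BRD8 summits, 38.3 Mb from 61047929 to 99325365, and the next longest was 30.3 Mb. In 16HBE14o- the stretch around KLF5 was 12.9 Mb, the 6th longest of 9482, and 3 of the 6 span a centromere. For CTCF it was 6.87 Mb, the 15th longest of 16390, and 7 of the 15 span a centromere. Stretches at least as long covered 1.32% of the distance between neighbouring summits for Calu3 BRD8, 3.94% for 16HBE14o- BRD8 and 5.72% for CTCF. Beyond KLF5, toward the end of chromosome 13, Calu3 had 3 BRD8 peaks and 16HBE14o- had 54, while Calu3 had 34 CTCF peaks. The whole of 13q was sparse, with 0.236 Calu3 BRD8 peaks per 500 kb, 0.648 of 16HBE14o- and 0.704 of CTCF, against 1.60, 1.56 and 2.70 over all tiles. With no control library used here, sites without BRD8 and sites that were poorly detected cannot be told apart.

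**Figure D5:**
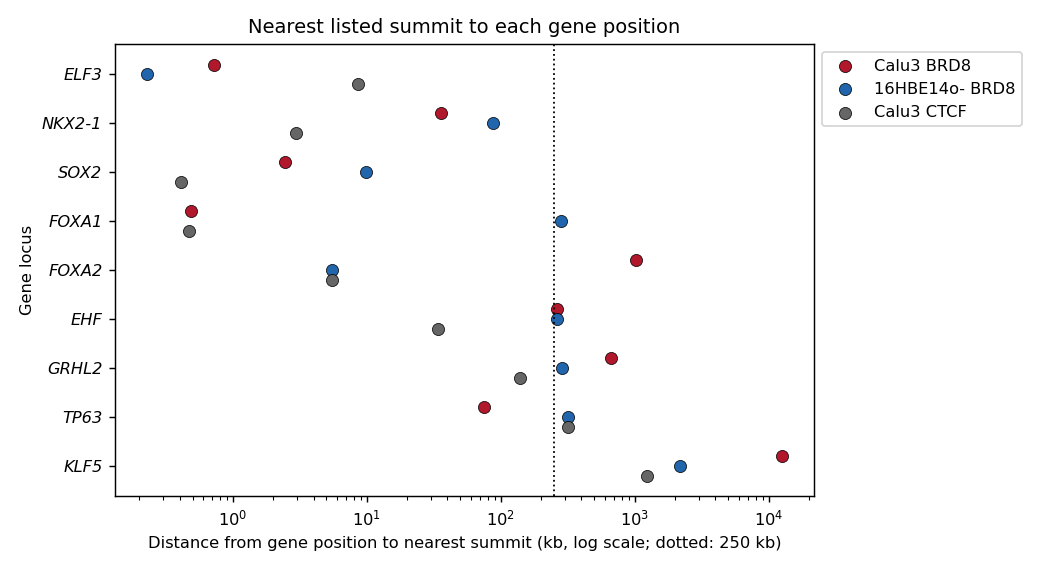
Distance from each gene's position to the nearest summit of the Calu3 BRD8, 16HBE14o- BRD8 and Calu3 CTCF lists in kb (x axis, log scale), with the 250 kb limit dotted. Distances run from 0.228 kb at ELF3 in 16HBE14o- to 12585 kb at KLF5 in Calu3, with positions given only to the nearest 1 kb.

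FOXA1 (14q21.1, chromosome 14, position 38064000) had its BRD8 peaks in Calu3, close to the gene. One summit lay 3.01 kb below the position (38060756 to 38061231, signal 50.1, percentile 81.7) and met the strongest CTCF peak of the locus (38060872 to 38061128, signal 217.8, rank 580, percentile 96.5), with summits 18 bp apart. The gene is on the minus strand, so this is the direction in which FOXA1 is transcribed. The second BRD8 summit lay 0.488 kb below the position (38063275 to 38063750, signal 32.1, percentile 49.98) and met no CTCF peak, and a weak CTCF peak followed 0.471 kb above it (percentile 3.88). The nearest BRD8 summit of 16HBE14o- was 280.1 kb above the position. All 3 lists had a peak at that place outside the window, with percentiles of 78.2 for Calu3 BRD8, 64.1 for 16HBE14o- BRD8 and 52.9 for CTCF. The other 3 CTCF peaks of the locus lay 10.8 to 29.0 kb below the position, at percentiles of 10.7 to 25.1.

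FOXA2 (20p11.21, chromosome 20, position 22562000) showed the opposite order of the lines. In Calu3 the nearest listed BRD8 summit was 1.03 Mb away. The stretch of 10.7 Mb around the gene was the 16th longest of 9746, and 5 of those 16 span a centromere. Stretches at least this long covered 9.31% of the distance between neighbouring Calu3 BRD8 summits. In 16HBE14o- a BRD8 peak 5.54 kb above the position (22567428 to 22567651, signal 32.6, percentile 63.0) met a CTCF peak of Calu3 (22567485 to 22567566, signal 77.8, percentile 76.2), with summits 25 bp apart. This site therefore had CTCF in Calu3 without a listed BRD8 peak there. A further BRD8 peak of 16HBE14o-, 102.8 kb above (22664714 to 22664937, signal 27.7, percentile 42.9), met no peak of another list. It was the strongest BRD8 peak of 16HBE14o- at the 9 loci with neither CTCF nor a Calu3 BRD8 peak within 1 kb. The last BRD8 peak at FOXA2, 247.0 kb below, was the peak nearest to the limit of the window and stood at percentile 1.24.

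The forkhead genes and NKX2-1 did not follow the chromosome arms in the same way. On 14q, which carries FOXA1 and NKX2-1, the lists held 1.59 BRD8 peaks per 500 kb in Calu3 and 3.01 in 16HBE14o-, so the arm had the opposite order to both loci. On 20p the means were 0.727 in Calu3 and 1.69 in 16HBE14o-, the same order as at FOXA2. The lists have no replicate values, and the differences in number at single loci were not tested.

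NKX2-1 (14q13.3, chromosome 14, position 36987000) had BRD8 at a distance and CTCF nearby. A CTCF peak lay 2.98 kb above the position (36989834 to 36990123, signal 57.7, percentile 69.5) and met no BRD8 peak. The nearest BRD8 summit was 36.1 kb away in Calu3 (percentile 20.2) and 87.3 kb away in 16HBE14o- (percentile 32.7). That 16HBE14o- peak (37074214 to 37074437, signal 25.6) was part of a region of all 3 lists, where Calu3 BRD8 stood at percentile 49.3 and CTCF at 46.6, with Calu3 BRD8 and CTCF summits 2 bp apart. The strongest Calu3 BRD8 peak of the locus, 130.3 kb above the position (37117079 to 37117554, signal 42.9, percentile 73.0), met the strongest CTCF peak (37117176 to 37117342, signal 99.4, percentile 80.6). A further Calu3 BRD8 site with CTCF lay 138.3 kb above, at percentiles of 50.1 for BRD8 and 46.1 for CTCF. The Calu3 peak 143.6 kb below the position (36843204 to 36843679, percentile 56.1) had no peak of another list within 146.5 kb. PAX9 and NKX2-8, further genes of developmental transcription factors, follow NKX2-1 in the RefSeq gene order, and the peaks were not assigned to any gene.

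SOX2 (3q26.33, chromosome 3, position 181430000) had all of its 10 peaks on the side of lower coordinates, 0.413 to 16.7 kb from the position. The gene is on the plus strand, so that side is upstream, though the 1 kb precision of the position leaves the side of the summit at 0.413 kb uncertain. All 3 BRD8 peaks of Calu3 met CTCF. The one nearest to the gene, 2.47 kb upstream (181427296 to 181427771), had the highest signal, 69.1, with rank 736 and percentile 92.5, and its CTCF partner stood at 62.5 with a summit 79 bp away. It was the strongest Calu3 BRD8 peak at the 9 loci with CTCF and without a 16HBE14o- BRD8 peak within 1 kb. The region 9.93 kb upstream had all 3 lists. There the BRD8 summits of Calu3 (181419837 to 181420312, percentile 59.6) and 16HBE14o- (181419962 to 181420185, signal 30.6, percentile 55.9) were 1 bp apart. CTCF there (181419941 to 181420136) had the highest signal of the 35 CTCF peaks, 229.1, with rank 436 and percentile 97.3.

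The remaining SOX2 peaks were of Calu3. BRD8 and CTCF met 11.6 kb upstream with summits 9 bp apart, at percentiles of 72.9 for BRD8 and 52.3 for CTCF. CTCF peaks without BRD8 lay 16.7 kb upstream (percentile 80.8), 12.7 kb upstream (12.1) and 0.413 kb upstream (18.9), the last of them the summit nearest to the position. On the downstream side the next summit was 364.3 kb away for Calu3 BRD8, 546.6 kb for CTCF and 971.5 kb for 16HBE14o- BRD8. SOX2 and TP63 both lie on 3q, where the lists averaged 3.83 BRD8 peaks per 500 kb in Calu3 and 1.17 in 16HBE14o-. CTCF in Calu3 averaged 4.24 on this arm, against 2.70 over all tiles, and copy number was not measured. The 3 Calu3 and 1 16HBE14o- BRD8 peaks at SOX2 have the same order as that arm.

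TP63 (3q28, chromosome 3, position 189349000) had 1 peak. This Calu3 BRD8 peak lay 75.6 kb below the position (189273169 to 189273644) with a signal of 13.8, at percentile 9.56, and no CTCF summit was listed within 282.8 kb of it. Beyond the window, 16HBE14o- BRD8 and Calu3 CTCF had overlapping peaks 317.5 kb above the position, at percentiles of 34.0 and 68.7. All 3 lists met 330.5 kb above it, where the Calu3 BRD8 peak stood at percentile 69.3. TP63 spans more than one start site, and the single position used here stands for the locus as a whole.

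GRHL2 (8q22.3, chromosome 8, position 102505000) had 2 CTCF peaks, 165.7 kb below the position (percentile 28.7) and 140.0 kb above it (percentile 22.2), both without BRD8. The nearest BRD8 summit of 16HBE14o- lay 287.6 kb below the position (percentile 45.5) and overlapped a CTCF peak (percentile 71.7). In Calu3 the nearest one was 665.4 kb below it (percentile 7.51). Around GRHL2, Calu3 had no BRD8 summit for 3.93 Mb and 16HBE14o- none for 0.919 Mb.

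Peaks that overlap must have summits close together, so the distances below are bounded by how the pairs were chosen. Over the whole lists the largest distance was 348 bp from Calu3 BRD8 to 16HBE14o- BRD8. It was 387 bp from Calu3 BRD8 to CTCF and 241 bp from 16HBE14o- BRD8 to CTCF. Of the 11 Calu3 BRD8 peaks that met one of 16HBE14o-, the median distance between summits was 29 bp, against 35 bp over the list. For the 9 BRD8 peaks of 16HBE14o- that met CTCF it was 22 bp (3 to 39 bp), against 19 bp. For the 13 Calu3 BRD8 peaks that met CTCF it was 66 bp (2 to 241 bp), against 37 bp, and 5 of the 13 lay within 50 bp, against 60.5% of the list. The nearest CTCF summit to a BRD8 peak that met none lay at a median distance of 33.1 kb in Calu3 and also 33.1 kb in 16HBE14o-. Over the whole lists the medians were 24.7 kb and 47.6 kb.

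Of the 74 summits, 10 lay within 5 kb of a gene position, which is a small part of windows that reach 250 kb on each side. Within 5 kb of a position there were 4 BRD8 summits of Calu3, at ELF3, FOXA1 and SOX2, and 1 of 16HBE14o-, at ELF3. CTCF had 5, at FOXA1, SOX2 and NKX2-1. The median distance from the position was 98.3 kb for Calu3 BRD8, 113.8 kb for 16HBE14o- BRD8 and 87.4 kb for CTCF. No background was computed for these distances, so whether summits gather near the genes or avoid them was not tested.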

How the data were processed

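ChIP-seq peak lists of BRD8 in Calu3 and 16HBE14o- and of CTCF in Calu3 were analysed. Per the series' design text each list came from 2 replicates by IDR, and per the file headers it is in narrowPeak format on hg19. The tools for alignment and peak calling, any control library and the thresholds of IDR are not given in the sources used here. The deposited signal per peak, whose scale is not stated, served to rank peaks within a list. The deposited score columns were not used for any result, and the deposited p-value column holds -1 throughout.

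Summits were taken as start plus offset. Peaks named are the strongest of each list at each locus, those within 5 kb of the position, regions of all 3 lists in the upper 10% of one, and the strongest peaks of 1 line. Others were chosen after their values were seen, as were the promoters shown. The members and lists were chosen with earlier results of these data known. Gene positions on hg19 came from the rule that chose the loci. A planned count at other airway transcription factor genes and a motif search under the summits needed an hg19 annotation and genome and were not run.

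Python 3.11.15 (pandas 2.3.3, numpy 2.4.6, scipy 1.17.1) was used for the overlaps, whose counts were found equal to those of bedtools 2.31.1. The code was also run on windows set around the summits of randomly drawn Calu3 BRD8 peaks. Each such peak must meet its own window, so that run checks the code only. Chromosome lengths, arms and bands of hg19 came from circlize 0.4.16. Figures were drawn with matplotlib 3.10.9.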

Additional observations from a re-analysis of the deposited data

How the results depend on the processing

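No paired analysis was possible because each list is pooled over its 2 replicates and no result comes from a test. Of 136 recomputed totals and shares over the loci, 118 stayed within counting error or within a factor of 1.5. Many of the 136 leave out a single locus, and some of those could not change. Leaving out KLF5, which has no peak, alters nothing, and leaving out EHF or GRHL2 alters no number or share of BRD8 peaks. A share also counted as unchanged anywhere within its wide main interval, so 118 of 136 overstates how stable the results are. The numbers follow the window: with 100 kb each side there were 12 Calu3 BRD8, 5 16HBE14o- BRD8 and 18 CTCF peaks, and with 500 kb 47, 28 and 67. The upper 50% of each list left 15, 7 and 16, and lists of equal length left 18 CTCF peaks. Without ELF3, 11 Calu3 and 5 16HBE14o- BRD8 peaks remained, and the share of Calu3 BRD8 peaks met in 16HBE14o- was 18.2%; leaving out ELF3 was chosen after seeing the data for the numbers of peaks and for the share of CTCF peaks with BRD8 of 16HBE14o-. A reciprocal overlap of at least 50% left 1 shared pair, 4.17% of Calu3 and 6.67% of 16HBE14o- peaks, since the usual widths were 476 bp in Calu3 and 224 bp in 16HBE14o-. In the upper 50% of each list, CTCF was met by 6 of 7 BRD8 peaks of 16HBE14o- (85.7%, 42.1 to 99.6%). There BRD8 of Calu3 was met by 9 of 16 CTCF peaks (56.3%, 29.9 to 80.2%). With lists of equal length that last share was 12 of 18 (66.7%, 41.0 to 86.7%), because the shorter CTCF list holds stronger peaks only. The same shares over all peaks of the shortened lists were not computed, so these 3 values have no background. Of 135 counts at single loci, 42 changed by more than a factor of 1.5. With 9 loci and pooled lists, counting error is wide, and the depth behind a missing peak is unknown.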
